A study of Mus musculus with 5 samples.

Results

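Clones 11B and 30 are 2 of the 5 clones of mouse cardiac progenitor cells in this series, and were chosen by their mean Cxcl12 values on these arrays, the highest and the lowest of the 5. Cxcl12 encodes stromal cell-derived factor 1 (SDF-1). All clones were derived from adult mouse left ventricles, at an age of 5 to 6 months and of the strain written C67BL/6 in the labels. Cells carrying Sca-1, a surface protein common on progenitors, were picked with an antibody, grown out, cloned with rings and subcloned by dilution. The labels call them c-kit+, c-kit being the receptor for stem cell factor. No treatment is named, and the labels do not say which mouse gave rise to which clone. Each clone was hybridised to 1 Affymetrix expression array from total RNA. A clone is therefore a single derived line without a replicate, no difference below was tested, and "called" means only a difference of at least 1 log2 unit, which is 2-fold. The title of the series asks how SDF-1 production relates to vasculogenic potential. The pair at the ends of the Cxcl12 range was compared to see which secreted factors and pathways were higher together with Cxcl12 and which were higher in the opposite clone.

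SDF-1 is a chemokine that binds the G protein-coupled receptor Cxcr4, draws progenitor and endothelial cells towards its source and is cleaved by the protease Dpp4. Ackr3, its other receptor, takes the chemokine up and removes it. Progenitor cells in the heart are thought to act largely through such secreted proteins: angiogenic ligands such as adrenomedullin and VEGF, growth factors of the FGF family, TGF-beta family ligands and the proteins that trap them, and enzymes that remodel the matrix.

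The deposited values were ratios, with each probe set (the group of probes that reads 1 transcript) set relative to its median clone or, where that was low, to a floor. A ratio of 1.00 is thus the middle clone, or the floor on a probe set set relative to it, and ratios of different genes cannot be compared as levels. The gene value is the mean log2 ratio over its measured probe sets, and the log2 difference is clone 11B minus clone 30 throughout. Of 18193 named genes, 9435 were measured. Of these, 127 were measured only because clone 11B lay above the floor, and 152 only because clone 30 did. For such genes the direction of the difference was fixed by the filter. Many ratios recurred unchanged on many probe sets. Such a shared level does not measure the gene, and 2201 measured genes (23.3%) differed between the clones by no more than 0.02 log2 units. Pairs of probe sets of the same gene gave log2 differences that varied with a standard deviation of 0.56 (6681 pairs), which corresponds to 0.39 for a single probe set, whereas 18 hybridization controls varied by 0.07. In the RNA controls, the ratio of the Actb 5' probe set was divided by that of its 3' probe set. Each is already relative to its own median clone or floor, so the quotient compares clones and is no signal ratio between the ends. For Actb it was 0.597 in clone 11B and 0.743 in clone 30, against 1.00 to 1.08 in the other clones. For Gapdh it was 0.924 in clone 11B and 1.00 in clone 30, against 1.03 to 1.16 in the others. The ratios of the 18S probe sets were 0.411 to 0.555 in clone 11B and 1.00 in clone 30. Spiked poly-A controls had a median log2 difference of -0.24 (24 probe sets). The part of these RNA differences in the gene differences was not tested, and precision is limited by having 1 array per clone.

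The bases upstream of the transcription start are shown for 4 ligands that differed between the clones. Cxcl12, Adm (adrenomedullin) and Fgf7 were higher in clone 11B, and Inhbb (the activin beta B subunit) was higher in clone 30. Each sequence holds the 250 bases before the start, 5′ to 3′ on the gene's strand, from RefSeq on GRCm38.p6, and capitals mark motif matches. The Cxcl12 window is chr6:117168285-117168534 on the + strand, that of Adm chr7:110627407-110627656 on the + strand, that of Fgf7 chr2:126034408-126034657 on the + strand and that of Inhbb chr1:119422249-119422498 on the - strand.
Cxcl12: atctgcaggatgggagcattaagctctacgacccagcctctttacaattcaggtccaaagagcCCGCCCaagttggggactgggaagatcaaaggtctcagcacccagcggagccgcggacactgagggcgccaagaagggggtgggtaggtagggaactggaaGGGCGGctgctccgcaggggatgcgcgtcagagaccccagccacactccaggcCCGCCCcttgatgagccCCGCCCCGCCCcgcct
Adm: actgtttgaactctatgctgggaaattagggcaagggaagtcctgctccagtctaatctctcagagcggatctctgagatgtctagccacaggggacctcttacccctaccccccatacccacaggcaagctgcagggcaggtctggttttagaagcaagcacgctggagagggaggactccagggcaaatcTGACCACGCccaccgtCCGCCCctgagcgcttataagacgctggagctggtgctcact
Fgf7: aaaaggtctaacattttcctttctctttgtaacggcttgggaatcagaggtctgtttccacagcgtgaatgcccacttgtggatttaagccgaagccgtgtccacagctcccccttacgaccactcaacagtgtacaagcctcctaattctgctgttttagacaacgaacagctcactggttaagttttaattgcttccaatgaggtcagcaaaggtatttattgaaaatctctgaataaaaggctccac
Inhbb: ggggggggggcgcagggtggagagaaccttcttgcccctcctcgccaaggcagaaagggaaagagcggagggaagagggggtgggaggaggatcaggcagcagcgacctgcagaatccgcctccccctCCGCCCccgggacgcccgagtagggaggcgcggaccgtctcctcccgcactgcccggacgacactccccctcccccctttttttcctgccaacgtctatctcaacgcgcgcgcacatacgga
The motifs searched on both strands were the hypoxia response core (ACGTG), the AP-1 site (TGANTCA), the antioxidant response core (TGACNNNGC), the GC box (GGGCGG) and the TATA box (TATAAA). The Cxcl12 window had 64.4% G and C and held 5 GC boxes, first bases at -187, -86, -33, -16 and -11 from the start, the last pair overlapping by a base. The Adm window held an antioxidant response core at -58 and a GC box at -42, with 56.8% G and C. Fgf7 had 43.6% G and C and none of these letter strings in its window, and Inhbb had 68.0% and a GC box at -122. A match is a run of letters and not evidence of a bound factor. A GC box was held by 32.9% of the 27025 promoters given, and among the measured genes 58.4% did. Genes called higher in clone 11B held one in 68.3% (129 of 189 with a promoter given) and genes called higher in clone 30 in 56.8% (88 of 155). The antioxidant response core was held by 11.8% of the 7688 measured genes, 6.35% of those higher in clone 11B (12 of 189) and 11.6% of those higher in clone 30 (18 of 155).

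Cxcl12 itself was read by 2 measured probe sets. On probe set 1448823_at the ratio was 1.89 in clone 11B and 0.307 in clone 30, with 0.997, 1.00 and 1.001 in clones 1D, 20B and 42. Those last 3 ratios recurred together on 375 other probe sets and are a shared level. On probe set 1417574_at clone 11B stood at 2.78 and clone 30 at 0.974, and the other clones lay between 0.984 and 1.056. Clone 11B was thus high on both probe sets, while clone 30 was low only on the first, the second being divided by the floor. Log2 differences were 2.62 and 1.51, with a mean of 2.07, which is 4.19-fold. The remaining probe set, 1439084_at, was not measured and gave -0.07. These values chose the clones and are a description. The 10 nearest measured genes on chromosome 6 had log2 differences from -0.72 to 0.46, and none was called.

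Little of the SDF-1 axis beyond the ligand could be followed. Cxcr4 was not measured, with ratios of 0.768 to 0.779 over the 5 clones. Ackr3 (log2 difference 0.01) and Dpp4 (0.01) sat at shared levels in both clones. Mif, a cytokine that also binds Cxcr4, had a log2 difference of 0.34, and Mmp14, a membrane metalloproteinase able to cleave SDF-1, one of -0.19. Both lay within the spread of a single probe set. Of 25 measured genes of SDF-1 receptor signalling, 1 was called, a share no higher than the 4.36% called among all measured genes. This was Gnb1, a G protein beta subunit, at 1.30, with 1.30 and 1.31 on its measured probe sets. The call of Gnb1 was lost with every probe set averaged. Next in size were the GTPase gene Rhoa at -0.80, Arrb2, the beta-arrestin that switches off Cxcr4, at -0.65, and Pik3ca, a catalytic subunit of PI3 kinase, at 0.61.

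Over all measured genes, 411 of 9435 (4.36%) were called, 222 (2.35%) higher in clone 11B and 189 (2.00%) higher in clone 30. The count of calls in each list below is to be set beside these shares. At 2 log2 units, which is 4-fold, the counts were 23 (0.244%) and 21 (0.223%). The secreted factors comprised 619 genes in 22 lists, from chemokines to collagens, of which 560 were on the array and 273 were measured. The lists follow gene families, so not every member is released from the cell, Fgf12 among the called ones being an example. Of these 273, 15 were higher in clone 11B, the direction of Cxcl12, and 8 were higher in clone 30. This is 8.42% called beside 4.36% of all measured genes, from the contrast that chose the clones, and nothing is read from it. Cxcl12 is among the 15 because its values chose the pair, and without it 14 and 8 of 272 (8.09%) were called. The median log2 difference of the secreted factors was 0.01, as it was for all genes. A departure here means at least 1 log2 unit from the median of the other clones, in the direction of the call. Of the 23 called secreted factors, clone 30 alone departed in 13, clone 11B alone in 2, both in 2 and neither in 6. Of all 411 called genes, with departures counted in either direction, clone 30 alone departed in 187 and clone 11B alone in 60. Both did in 13 and neither in 151, so clone 30 was the more frequent departure beyond the secreted factors too. In 7 of the 23 (Cxcl12, Bmp2, Clcf1, Vegfb and Sema4f, and in the reverse order Metrn and Sdc1) clones 11B and 30 were the ends of all 5 by more than 0.02 log2 units, and 14 rested on 1 measured probe set. Among all 411 calls the pair were such ends in 98 and, in the reverse order, 73, and 311 rested on 1 measured probe set. The call was kept in every alternative setting that measured the gene by 11 of the 23: Cxcl12, for which the choice of clones fixed it, and Mmp3, Lama5, Adm, Fgf7, Bmp2, Clcf1, Vegfb, Clu, Fst and Tgfb3. Mmp3, Bmp2, Vegfb and Tgfb3 have 1 probe set each on the array. Settings that only combine probe sets in another way could not change their calls, so keeping them there shows nothing.

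**Figure D1:**
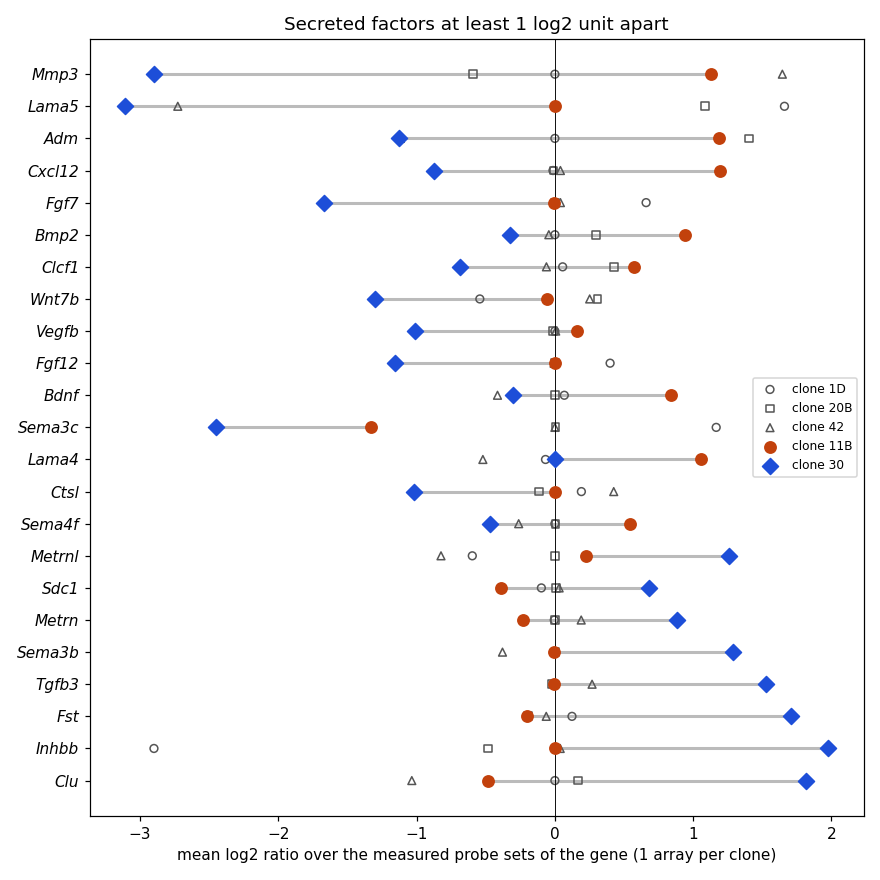
Mean log2 ratio (x axis) of the 23 secreted factors called between clone 11B (orange circles) and clone 30 (blue diamonds), joined by a grey line, with the other clones as open symbols and 1 array per clone. The lines run from Mmp3, 4.03 log2 units higher in clone 11B, at the top to Clu, 2.30 higher in clone 30, at the bottom. In 13 of the 23, only the blue symbol lies 1 log2 unit or more from the other clones' median in the call's direction.

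The calls in the list of VEGF, angiopoietin and other angiogenic factors and in that of FGF, HGF and neurotrophin ligands were all higher in clone 11B. Adm encodes adrenomedullin, a vasodilator and angiogenic peptide induced by low oxygen. Its ratios on probe set 1416077_at were 1.95 in clone 11B and 0.749 in clone 30, and those on 1447839_x_at 2.65 and 0.281. Clone 20B was higher than clone 11B, at 2.08 and 3.37, and clone 42 as low as clone 30, at 0.666 and 0.319, so Adm did not follow Cxcl12 across all clones. This gave a log2 difference of 2.31, with 1.38 and 3.24 on the probe sets. Vegfb, a VEGF family ligand, had ratios of 1.12 and 0.495 in clones 11B and 30 and 0.989 to 1.004 in the others, a log2 difference of 1.18. Of the 16 measured angiogenic factors these were the 2 called (12.5%, beside 4.36% of all measured genes). Angptl4, a regulator of lipid uptake and vessel permeability, ran the other way at -0.74, below the threshold. So did Sphk1, the kinase that makes sphingosine 1-phosphate, at -0.51.

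Fgf7, the keratinocyte growth factor made by mesenchymal cells, was low in clone 30 rather than high in clone 11B. Its ratios on probe sets 1422243_at and 1438405_at were 0.397 and 0.250 in clone 30 and 0.995 on both in clone 11B. Clone 1D was highest, at 2.10 and 1.19. Averaged, the log2 difference came to 1.66, from 1.33 and 1.99. On the second probe set clones 11B, 20B and 42 had ratios shared with 502 others, so that size is uncertain. Bdnf, a neurotrophin that also supports endothelial cells, had ratios of 1.66 and 1.92 in clone 11B and 0.677 and 0.974 in clone 30. Its log2 difference was 1.14, and 0.98, no longer called, when the probe set with the largest mean ratio stood for the gene. Fgf12, an FGF-like protein that stays inside cells, had ratios of 1.00 in clone 11B and 0.448 in clone 30. Its log2 difference was 1.16, and 0.38 with every probe set averaged. Of the 14 measured genes in this list 3 were called (21.4%, beside 4.36% of all measured genes), all higher in clone 11B. Ntf5, another neurotrophin, had a log2 difference of -0.74.

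Genes of the TGF-beta family were called in both directions. Bmp2, a bone morphogenetic protein, had ratios of 1.92 in clone 11B, the highest, and 0.798 in clone 30, the lowest, with 0.970 to 1.23 in the other clones. They differed by 1.27 log2 units. Inhbb had ratios of 1.00 in clone 11B and 3.94 in clone 30, with 0.716 and 1.03 in clones 20B and 42 and 0.134 in clone 1D. Its log2 difference was -1.98, and -0.98 with every probe set averaged, which ends the call. Tgfb3, a TGF-beta ligand of heart valve development and wound repair, stood at 2.88 in clone 30 and at 0.995 in clone 11B, with 0.987 to 1.21 elsewhere, a log2 difference of -1.54. Tgfb1 lay at 0.81, below the threshold. Fst encodes follistatin, which binds activin and blocks it. Its ratios were 4.44 and 2.39 in clone 30 and 0.750 and 1.01 in clone 11B, the other clones lying between 0.824 and 1.19. For Fst the log2 difference was -1.91, from -2.57 and -1.25. Clone 30 was therefore the highest of the 5 clones for an activin subunit, for follistatin and for Tgfb3, and clone 11B lay with the rest. The list counts were 1 higher in clone 11B and 2 higher in clone 30 of 13 measured ligands, with a median of -0.09. That is 23.1% called, beside 4.36% of all measured genes. Of 13 measured inhibitors 1 was called, higher in clone 30, with a median of -0.18. Ltbp4 (-0.82) and Ltbp1 (-0.58), which hold latent TGF-beta in the matrix, and Twsg1 (-0.62), a BMP-binding protein, were the next in size among the inhibitors.

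Of 18 measured interleukins and other cytokines, 1 was called higher in clone 11B and 2 higher in clone 30. That is 16.7% called, beside 4.36% of all measured genes. Clcf1, an IL-6 family cytokine, was higher in clone 11B on all 3 of its probe sets, with ratios of 1.71, 1.93 and 1.00 against 0.706, 0.852 and 0.400 in clone 30. The other clones lay between 0.943 and 1.49, and the log2 difference was 1.26, from 1.18 to 1.32 over the probe sets. Metrn and Metrnl, related secreted proteins of nerve and fat tissue, were higher in clone 30. The ratios of Metrn were 0.852 in clone 11B and 1.85 in clone 30, and those of Metrnl 1.17 and 2.39. Their log2 differences were -1.12 and -1.03, and with every probe set averaged neither kept its call, at -0.56 and -0.34. Metrn lay beside genes that differed alike: of its 10 nearest measured genes 3 were called higher in clone 30 and the median was -0.87. Lif had a log2 difference of -0.62. Chemokines of the CXC and CX3C groups had 4 measured members besides Cxcl12, none called. Cxcl1, which attracts neutrophils, was at -0.76. Cx3cl1, at -0.48, and Cxcl16, at -0.18, were measured only because clone 30 lay above the floor, which fixed their direction. Ccl2, which attracts monocytes, had ratios of 0.639 in clone 11B, 1.24 in clone 30 and 0.279 in clone 42, a log2 difference of -0.95 that lay just below the threshold.

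Wnt ligands and guidance factors gave few calls. Wnt7b, a Wnt ligand, was called at 1.24, but its probe sets disagreed. On 1420892_at the ratios were 1.00 in clone 11B and 0.182 in clone 30, a log2 difference of 2.46, and on 1420891_at they were 0.920 and 0.909, a log2 difference of 0.02. The other 8 of 9 measured Wnt ligands were not called, Wnt5a lying at -0.13, and none of 5 secreted Wnt inhibitors was. Among 17 measured semaphorins, netrins and slits, Sema3c (1.12) and Sema4f (1.02) were higher in clone 11B and Sema3b (-1.29) was higher in clone 30. Sema3c, a class 3 semaphorin of cardiac outflow tract development, was low in both clones, with ratios of 0.397 and 0.183 against 1.00 to 2.25 in the others. Sema3b stood at 2.44 in clone 30 and at a shared level in clone 11B. These 3 calls were lost with every probe set averaged. In the lists of EGF and PDGF ligands (7 measured), IGF ligands and binding proteins (6) and hedgehog, Notch and ephrin ligands (10), no member was called. Tgfa was far below the other clones in both, with mean log2 ratios of -3.58 in clone 11B and -2.71 in clone 30 against 0.00 to 0.31.

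**Figure D2:**
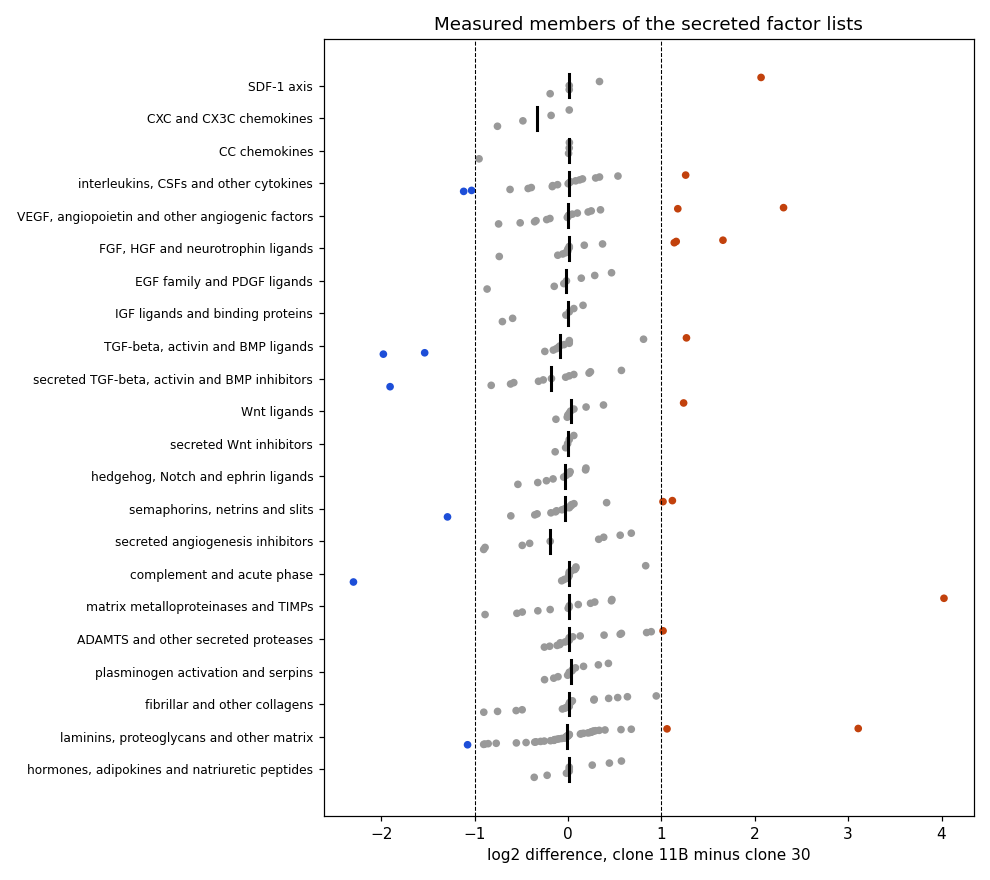
Log2 difference, clone 11B minus clone 30 (x axis), of each measured member of the 22 secreted factor lists, with members stacked by value within a list, a black bar at the list's median and dashed lines at 1 log2 unit. Orange points were called higher in clone 11B and blue points higher in clone 30. List medians lie between -0.33 and 0.03, the lowest being that of the CXC and CX3C chemokines, where 2 of 4 members were measured only through clone 30.

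Matrix and proteases held the widest difference among secreted factors. Mmp3, or stromelysin, which degrades matrix proteins and activates other metalloproteinases, had ratios of 2.18 in clone 11B and 0.134 in clone 30. Clone 42 was higher still, at 3.13, and clones 1D and 20B stood at 1.00 and 0.664, so clone 30 was the lowest clone but clone 11B not the highest. The log2 difference of 4.03, a 16.3-fold ratio, rests on 1 probe set. Of the other 13 of 14 measured metalloproteinases and their inhibitors none was called. Timp2, a metalloproteinase inhibitor that also restrains endothelial growth, was nearest at -0.89. Lama5, a laminin chain of basement membranes, had ratios of 1.00 in clone 11B and 0.116 in clone 30, with 0.151 in clone 42 and 3.16 in clone 1D. The log2 difference was 3.11, and 1.04 with every probe set averaged. Lama4, a laminin chain of vessel basement membranes, was high in clone 11B (2.09) and at 1.00 in clone 30, a log2 difference of 1.06, and 0.54 with every probe set averaged, which is no call. Sdc1, a heparan sulphate proteoglycan that binds growth factors and chemokines, was higher in clone 30 on each of 4 probe sets, with log2 differences from -0.38 to -1.83 and a mean of -1.08. With the median over probe sets in place of the mean the difference was -0.79, which is no call.

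Collagens were not called, although several lay near the threshold in either direction. Of 21 measured collagens, Col5a2 was at 0.94 and Col8a1 at 0.64, while Col6a3 was at -0.90 and Col6a2 at -0.75. The 2 collagen VI chains shared their direction with Sparc, a collagen-binding matrix protein, at -0.90 over probe sets from -1.59 to -0.21. In the list of ADAMTS and other secreted proteases, which leaves out the metalloproteinases above, Ctsl, cathepsin L, was the only call of 20 measured. Its log2 difference of 1.02 came from ratios of 1.00 in clone 11B and 0.494 in clone 30, and averaging every probe set gave 0.50. Ctsd, cathepsin D, followed at 0.89 and Adamts7 at 0.84. No member was called among 12 measured genes of plasminogen activation and serpins, 9 secreted angiogenesis inhibitors or 9 hormones and adipokines.

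Clu encodes clusterin, a secreted chaperone that inhibits complement, and had the largest difference among the secreted factors higher in clone 30. Its ratios over 4 probe sets were 2.92 to 4.07 in clone 30 and 0.412 to 0.998 in clone 11B, and clone 42 was lower still, at 0.343 to 0.664. For Clu it was -2.30 in log2 difference, with -2.83 to -1.86 over the probe sets, so every probe set was called. Masp1, a protease of the lectin pathway of complement, lay at 0.83, and no other of the 14 measured members of this list reached 1 log2 unit.

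**Figure D3:**
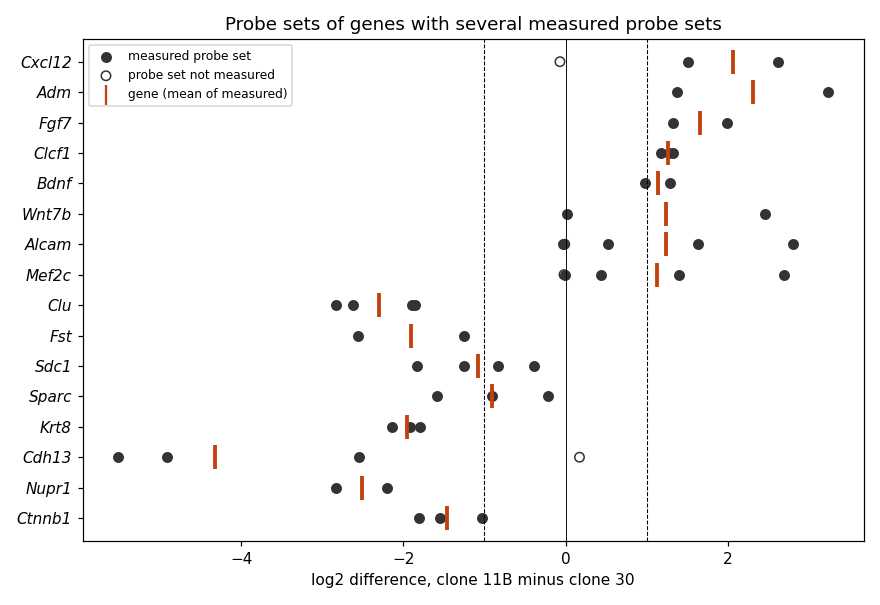
Log2 difference, clone 11B minus clone 30 (x axis), of each probe set of 16 genes with several measured probe sets. Filled circles were measured, open circles were not, the orange bar is the gene's mean over measured probe sets and dashed lines mark 1 log2 unit. All measured probe sets of Cxcl12, Adm, Fgf7, Clcf1, Clu, Fst, Krt8, Cdh13, Nupr1 and Ctnnb1 lie beyond 1 log2 unit on the same side, whereas those of Wnt7b, Alcam and Mef2c range from about 0 to more than 2.

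Of 30 measured receptors of angiogenic and growth factors 2 were called (6.67%, beside 4.36% of all measured genes), both higher in clone 11B: Tgfbr3, the co-receptor betaglycan that presents TGF-beta and inhibin, at 1.29, and Acvr1, a type I receptor of BMPs, at 1.04. In both cases clone 30 was the low clone, with ratios of 0.408 for Tgfbr3 and 0.389 and 0.621 for Acvr1. Both calls were lost with every probe set averaged. Acvr2a, an activin receptor, lay at 0.93, and Fgfr1, the FGF receptor of mesenchymal cells, at -0.84. Readout genes of TGF-beta and BMP signalling showed 1 call among 21 measured. This was Cdkn1a, the cell cycle inhibitor p21, at -1.11, and it was lost with every probe set averaged, at -0.27. Id3, a target of BMP signalling, lay at 0.68.

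Feedback and immediate early genes of the ERK pathway held 3 calls, each higher in clone 30. Dusp6, the phosphatase that switches off ERK and is itself induced by it, had a ratio of 0.101 in clone 11B and 1.005 in clone 30. Clone 11B was the clone apart, since clones 1D, 20B and 30 held ratios shared with 12 other probe sets and clone 42 stood at 1.26. The log2 difference was -3.31. Dusp1, a related phosphatase, followed at -1.20 and Ier2, an immediate early gene, at -1.24. For Ier2 clone 30 was the highest and clone 11B the lowest of the 5 clones, and for Dusp1 clone 30 was the highest while clones 11B and 1D were tied at the low end. Egr1, an immediate early transcription factor, lay at -0.90, where clones 1D, 20B and 30 held ratios shared with 883 other probe sets. In all, 3 of 24 measured members were called higher in clone 30, beside 2.00% of all measured genes, and none higher in clone 11B, beside 2.35%. The median was -0.10 over 10 members above 0 and 14 below (58.3%, beside 45.6% of all measured genes).

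Among 12 measured NF-kappaB genes none was called. The median was -0.23, and 9 lay below 0 (75.0%, beside 45.6% of all measured genes). Nfkbia, the inhibitor that NF-kappaB induces, was at -0.58, over probe sets from -1.07 to 0.18. Tnfaip2 at -0.44, Sod2, the mitochondrial superoxide dismutase, at -0.39 and Nfkbiz at -0.38 lay near the 0.39 spread of a single probe set. Ptgis, the prostacyclin synthase that makes a vasodilator, was the only call of 9 prostanoid genes. Its ratio was 8.24 in clone 30 and 1.00 in clone 11B, with 0.661 to 1.45 in the other clones, a log2 difference of -3.04. Hes1, a target gene of Notch, had ratios of 0.317 in clone 11B and 1.21 in clone 30, a log2 difference of -1.94. It was the only call of 12 measured Notch genes. Ctnnb1, which encodes beta-catenin, was lower in clone 11B on 3 probe sets, at ratios of 0.286 to 0.806 against 1.00 to 1.65 in clone 30. Its log2 difference was -1.46, and no other of 21 measured Wnt response genes was called.

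Hypoxia and glycolysis genes, the list that holds Adm, had a median of 0.00. Of 25 measured members, Adm (2.31) and Hk1 (2.20) were higher in clone 11B, no member was called higher in clone 30, and 12 lay below 0, among them P4ha2, a collagen prolyl hydroxylase, at -0.66. Hk1, a hexokinase, had ratios of 2.11 and 2.45 in clone 11B and 0.436 and 0.563 in clone 30. Cell cycle genes had the highest median among the pathway lists, 0.16 over 28 genes. There Cdk2 was called at 1.06, though not with every probe set averaged, and Cdkn1a at -1.11, and Pcna, the replication clamp, lay at 0.98 and Bub1, a mitotic checkpoint kinase, at 0.89. No interferon gene of 12 measured was called.

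**Figure D4:**
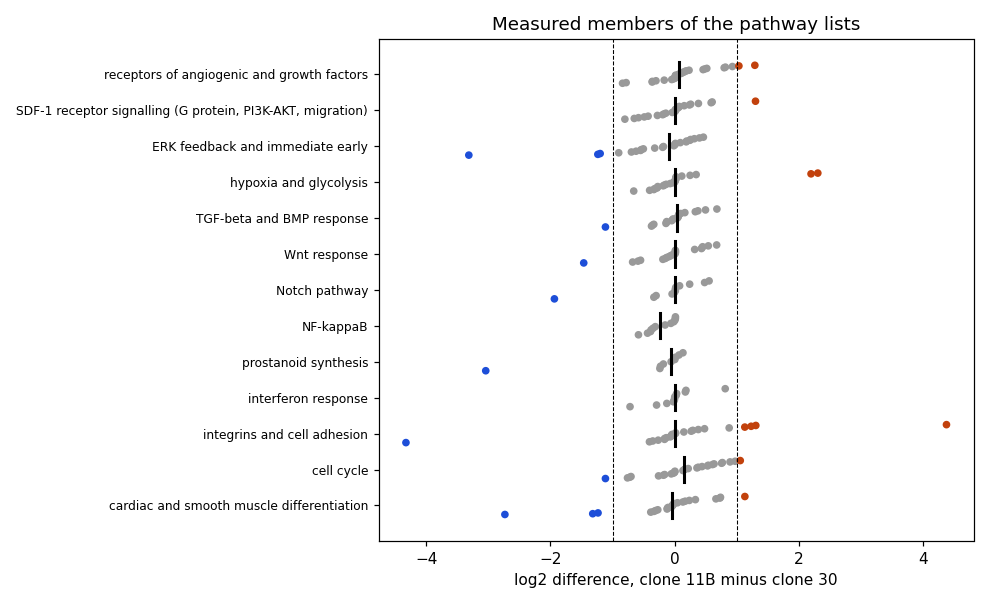
Log2 difference, clone 11B minus clone 30 (x axis), of each measured member of the 13 pathway lists, with members stacked by value within a list, a black bar at the list's median and dashed lines at 1 log2 unit. Orange points were called higher in clone 11B and blue points higher in clone 30. The receptor list holds 2 calls, higher in clone 11B, and the ERK list 3 calls, higher in clone 30.

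Surface and adhesion genes gave the farthest differences of the pair. Cd81, a tetraspanin of the cell surface, had a ratio of 0.048 in clone 30 and 1.00 in clone 11B, a log2 difference of 4.38. Clone 42 was as low as clone 30 and clone 20B was highest, at 3.48. Cdh13, or T-cadherin, which anchors to the membrane without a cytoplasmic tail and binds adiponectin, was the reverse. Its ratios over 3 probe sets were 3.42 to 8.48 in clone 30 and 0.127 to 0.583 in clone 11B, and clone 42 was again with clone 30, at 2.42 to 7.26. The log2 difference was -4.33. Cd44, the hyaluronan receptor, was called at 1.31 and Alcam, an adhesion molecule used as a progenitor marker, at 1.23. Both lost the call with every probe set averaged, and the probe sets of Alcam ranged from -0.03 to 2.80. Of 23 measured adhesion genes 4 were called higher in clone 11B and 1 higher in clone 30. The share called was 21.7%, beside 4.36% of all measured genes.

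Markers of other cell types were checked because a clone may carry a different state. Of 10 mesothelial and epicardial markers 5 were measured, 2 of them only because clone 30 lay above the floor, which fixed their direction. Krt8, a keratin, had ratios of 2.27 to 3.55 in clone 30 and 0.638 to 0.935 in clone 11B, a log2 difference of -1.95 on probe sets from -2.14 to -1.79. Msln, mesothelin, lay at -0.85 and Krt18 at a shared level (0.01). The 2 measured only through clone 30 were Upk3b, a uroplakin of mesothelium, at -1.18 and Krt7 at -0.94. Upk3b was not called when values under the floor were raised to it. Krt8 was called higher in the clone in which Clu, Fst, Tgfb3 and Inhbb were higher, and the part of these markers in those differences was not tested. Ratios give no level, so neither a summed marker level nor a marker at 0 can be stated.

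Cardiac and smooth muscle genes were mixed. Cryab, a small heat shock chaperone of muscle, had ratios of 12.2 and 4.20 in clone 30 and 1.21 and 0.958 in clone 11B, a log2 difference of -2.73. Hspb1, another small heat shock protein, was at -1.32, where clone 30 stood with the other clones and clones 11B and 42 were low. Tagln, an actin-binding protein of smooth muscle, was at -1.23, and -0.91 after quantile normalization. Mef2c, a transcription factor of muscle, was at 1.13 with probe sets from -0.01 to 2.70, and was not called with every probe set averaged. Of 24 measured genes 1 was called higher in clone 11B and 3 higher in clone 30. The share called was 16.7%, beside 4.36% of all measured genes. Of the defining markers of other cells, 3 of 8 for cardiomyocytes, 3 of 9 for leukocytes and 1 of 10 for endothelium were measured, and none was called. Nor was any of the 4 of 9 measured for smooth muscle and pericytes or the 5 of 10 for fibroblasts and mesenchyme. The smooth muscle and pericyte markers, which leave out Tagln, were Smtn at 0.73, Acta2 at -0.05, Abcc9 at -0.05 and Myh11 at -0.01. Kit, the gene of c-kit, was measured on 1 probe set at a level shared by clones 11B and 30 (log2 difference 0.01).

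Across all genes, those with the same ends as Cxcl12 were counted. Clone 11B was the highest and clone 30 the lowest of the 5 clones, each by more than the 0.02 log2 units that mark shared levels, for 365 of 9435 measured genes, 98 of them called. The reverse held for 277 of 9435, of which 73 were called. Choosing genes with the pair as ends itself favours large differences, so nothing is read from the calls among them. In the 127 genes measured only through clone 11B and the 152 only through clone 30, the filter fixed the highest clone. The farthest with the order of Cxcl12 were the homeobox gene Dlx2 at 4.06, Ago1, an argonaute protein of RNA silencing, at 3.90, Frmd4a, a scaffold of cell polarity, at 2.87, and Samd9l, an interferon-induced gene, at 2.85. Supv3l1, a mitochondrial RNA helicase, lay at 2.44, Erlec1 at 2.39, Eif4ebp2, a repressor of translation, at 2.33, Anapc16 at 2.30, Cfap36 at 2.23 and Hk1 at 2.20. In Dlx2, Ago1 and Samd9l clone 30 lay farther from the other clones than clone 11B did, with mean log2 ratios of -3.12, -3.00 and -1.96 against 0.94, 0.90 and 0.89. Erlec1, Eif4ebp2 and Anapc16 were not called with every probe set averaged.

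In the opposite order, Cdh13 (-4.33) was followed by the histone gene H2ac19 (-3.23), Sh3gl3, an endophilin of membrane curvature (-2.81), and Nupr1, a stress-induced transcription regulator (-2.51). Dapk2, a death-associated kinase, lay at -2.36, Crip2 at -2.09, Jdp2, an AP-1 repressor, at -2.02, Cpsf2 at -2.004, Lsr, a lipoprotein receptor, at -1.97 and the chemokine receptor gene Ccr1 at -1.96. The ratios of Nupr1 were 2.19 and 1.85 in clone 30 and 0.309 and 0.401 in clone 11B. Clone 42 was as low as clone 11B there, at 0.276 and 0.476. Calls of Cpsf2, Lsr and Ccr1 were lost with every probe set averaged. Ccr1 was measured only because clone 30 lay above the floor, at 2.001, which fixed its direction. Clone 11B, at 0.513, and the other clones lay below the floor, so their order there is uncertain.

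Further genes were among the 12 farthest in each direction. Higher in clone 11B were Prrx2, a homeobox gene of mesenchyme, at 3.19, Slc40a1, the iron exporter ferroportin, at 2.62, and Mybl1 at 2.52. In all 3 clone 30 was the lowest clone, with mean log2 ratios of -2.66, -2.62 and -2.52, and clone 11B lay within the range of the others. Higher in clone 30 were Ppp4c, a protein phosphatase subunit, at -3.39, Cobl, an actin nucleator, at -2.93, and Slc24a3, a sodium-calcium exchanger, at -2.52. Anxa8 and the GTPase gene Rhob both lay at -2.45. Ppp4c was low in both clones and lowest in clone 11B, with mean log2 ratios of -4.76 in clone 11B and -1.37 in clone 30. Anxa8 lay at -0.72 without probe sets marked for cross-hybridization. Cobl was measured only because clone 30 lay above the floor, which fixed its direction. Its other 4 clones lay together below the floor, so the size of its difference is uncertain too.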

How the data were processed

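Total RNA of 5 clones was measured on Affymetrix arrays, 1 per clone. The submitters' processing notes name RMA and GCRMA but give neither a version nor what each was used for. The authors deposited a linear ratio for 45101 probe sets. No source used here states the divisor. From the values, the median over arrays was exactly 1 on 18926 probe sets (42.0%), below 1 on the rest and never above.

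A probe set was measured if its median was 1 or any clone exceeded 1, and its range exceeded 0.05 log2 units. Only the 34958 probe sets with 1 symbol were named, from the array annotation, with symbols updated through RefSeq (GRCm38.p6). Log2 ratios of measured probe sets were averaged per gene and clone 30 was subtracted from clone 11B (Python 3.11.15, pandas 2.3.3, numpy 2.4.6). With 1 array per clone no test or p-value was computed. A ratio row recurred if 3 or more clones shared its values on at least 10 other probe sets.

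The clones and lists were chosen with earlier results of these data known. Named were the SDF-1 axis, called secreted factors, up to 4 members per list, the 12 farthest genes per direction and the 10 farthest with the pair as extremes. Also named were up to 6 members of 5 lists chosen after values were seen. Genes singled out otherwise were chosen after their values were seen. The calculation was tested on simulated ratios. There were 10 alternative settings.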

Additional observations from a re-analysis of the deposited data

How the results depend on the processing

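The counts of called genes, 222 higher in clone 11B and 189 higher in clone 30, were 110 and 125 when every probe set of a gene was averaged, flat ones included. In the other 9 settings they lay between 192 and 269 and between 145 and 244. That averaging kept 235 of the 411 calls and 59 of the 90 called genes named, and turned the split towards clone 30, with 46.8% of calls higher in clone 11B against 54.0%. Quantile normalization gave 59.6%. Taking for each gene the probe set whose mean ratio was highest turned the sign of 2 of the 411 calls. The Cxcl12 difference of 2.07 was 1.36 with every probe set averaged, 1.51 with the highest mean ratio and 2.62 with probe sets divided by their own median only. It stayed called in the 10 settings. No paired analysis was possible because each clone had 1 array, and for the same reason no replicate could be left out. A clone below the floor has only a bound, and spread between probe sets covers neither culture nor RNA preparation.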

Other observations

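Genes of the antioxidant response form a list chosen after seeing the values, which therefore supports nothing by itself. Of 22 measured NRF2 and glutathione genes 15 lay above 0 (68.2%, beside 53.7% of all measured genes) and 4 were called, all higher in clone 11B (beside 2.35% of all), with a median log2 difference of 0.26. Gclm, a subunit of the enzyme that limits glutathione synthesis, had ratios of 1.01 in clone 11B and 0.226 in clone 30, a log2 difference of 2.16. Nqo1, a quinone reductase, had ratios of 1.00 and 0.275, and clone 42 was also low at 0.497. Ptgr1 lay at 1.22, the aldo-keto reductase Akr1b8 at 1.16, Me1, the malic enzyme that makes NADPH, at 0.97 and the transketolase Tkt at 0.84. In these 6 genes clone 30 was the lowest clone and clone 11B lay inside the range of the others, except for Ptgr1, where it lay just below it.

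Lipid synthesis, also a list chosen after seeing the values, had a median of 0.15 over 20 measured genes. Of these, 5 were called higher in clone 11B and 1 higher in clone 30, beside 2.35% and 2.00% of all measured genes. Msmo1, an enzyme of cholesterol synthesis, lay at 1.79, Insig1, which restrains that synthesis, at 1.42, and Elovl6, a fatty acid elongase, at 1.21. Slc25a1, the mitochondrial citrate carrier, was at 1.18, the desaturase Scd2 at 1.15 and Ggps1 at -1.36. For Insig1, Elovl6 and Scd2 clone 11B was the high clone and clone 30 lay with the others. In Elovl6 the ratios of clones 1D, 20B and 30 recurred together on 883 other probe sets and are a shared level. Msmo1, Elovl6, Scd2 and Ggps1 lost their calls with every probe set averaged. Cytosolic ribosomal proteins had a median of -0.24 over 37 genes, with 2 called higher in clone 30. Of the 37, 26 lay below 0 (70.3%, beside 45.6% of all measured genes). Respiratory chain genes had a median of -0.10 over 72, with 1 called higher in clone 11B and 4 higher in clone 30, among them Ndufs7 at -1.38 and Ndufb10 at -1.36. Mitochondrial ribosomal proteins had a median of -0.01 over 72, with 3 called higher in clone 30. The shares called were 5.41% for cytosolic ribosomal, 6.94% for respiratory chain and 4.17% for mitochondrial ribosomal genes, beside 4.36% of all measured genes.

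Neighbouring genes differed alike in several places, a pattern looked for after the values were seen. Over 9139 windows of 15 measured genes in RefSeq order, the absolute window median was typically 0.03 log2 units, and its 99th percentile was 0.51. The farthest window, on chromosome 10 from Pald1 to Ccar1, had a median of 0.84 and 7 genes called higher in clone 11B: Eif4ebp2, Ppa1, Sar1a, Hk1, Supv3l1, Ddx50 and Ccar1. A window on chromosome 2 from Hspa14 to Atp5c1 had a median of 0.82 with 5 calls, Frmd4a and Celf2 among them. On chromosome 11 the window from Pex13 to Erlec1 had 0.74 and 5 calls, Cfap36, Rtn4 and Erlec1 among them. On chromosome 16 the window from Dnajb11 to Fgf12 had 0.58 and 5 calls. Higher in clone 30 was the window on chromosome 17 ending at Pigq, at -0.83 with 4 calls, one of them Metrn. So was the window on chromosome 10 from Cbarp to Uqcr11, at -0.72 with 3 calls, Cirbp, Ndufs7 and Rps15. The 10 nearest measured genes, 5 on each side, had medians of 0.79 for Hk1, 0.93 for Supv3l1 and -0.87 for Metrn, but of 0.21 for Erlec1 and 0.01 for Fgf12, which lie at the ends of their windows.

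TATA boxes were present in 5.29% of promoters of genes called higher in clone 11B (10 of 189) and 12.9% of those higher in clone 30 (20 of 155). They were present in 7.11% of the 7688 measured genes with a promoter and 13% of the 27025 promoters searched. Outside the lists, secreted proteins picked after seeing the values were also called. Srpx2, a matrix protein that binds the urokinase receptor, lay at -1.79, Cklf, a chemokine-like factor, at -2.26 on 1 of 7 probe sets, and Lipg, endothelial lipase, at 1.16.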
